A study of Mus musculus with 24 samples.

Results

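The FoxO transcription factors of skeletal muscle and a set of their autophagy targets were followed in gastrocnemius muscle of sedentary and ambulatory mice. The genes were 10 of the 55416 in the count table, taken as the listed symbols after each Ensembl identifier was matched to its symbol. They were 3 factors, Foxo1, Foxo3 and Foxo4, and 7 targets, Map1lc3a, Map1lc3b, Gabarapl1, Bnip3, Sqstm1, Ulk1 and Ctsl. All 10 passed the filter on low counts, as did 16408 genes in all.

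RNA sequencing of ribosomal RNA-depleted total RNA was made from 24 mice, in 4 groups of 6. Male and female mice (strain C56BL6J in the labels, C57BL/6J in the study's methods) were either sham, which means that they stayed ambulatory, or kept for 8 weeks in a small mouse cage (SMC) that restricts spontaneous movement. The mice were bought at 8 weeks of age, and in all groups tissue was taken under ketamine and xylazine after a fast of 4 hours. No group carried an engineered allele or a transgene, and both treatments were studied within each sex. Libraries are named here by the number in their title, which runs from 1 to 24 over the groups.

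FoxO proteins are transcription factors that insulin signaling keeps out of the nucleus through Akt. When insulin or nutrient signaling is low they enter the nucleus of the muscle fibre and raise genes of the ubiquitin-proteasome and autophagy-lysosome systems. Autophagy encloses cytoplasm in a double membrane, which LC3 and GABARAP proteins decorate, and delivers it to the lysosome for digestion, and mitophagy is the same route for mitochondria.

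Promoter windows are shown for the 3 genes that passed the test below, Foxo1, Foxo3 and Bnip3, and for Ctsl, which lay closest to the threshold. Each holds 250 bases before and 50 bases after the RefSeq start site, 5′ to 3′ on the strand of the gene, in the GRCm38.p6 build. Capitals mark matches to the forkhead core TGTTT, which reads as AAACA on the opposite strand, to the E-box CACGTG, which TFEB and clock factors bind, and to ACGTGC, the core of the hypoxia response element, on either strand. The E-box and ACGTGC overlap, so a run of capitals longer than 6 letters is a joint match.
Foxo1 (chr3:52268087-52268386, plus strand): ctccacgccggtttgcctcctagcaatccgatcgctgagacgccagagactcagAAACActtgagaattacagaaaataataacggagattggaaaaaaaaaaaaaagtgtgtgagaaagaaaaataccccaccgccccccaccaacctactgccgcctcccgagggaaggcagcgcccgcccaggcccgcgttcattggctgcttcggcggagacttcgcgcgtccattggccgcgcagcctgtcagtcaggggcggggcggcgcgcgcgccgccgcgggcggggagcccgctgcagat
Foxo3 (chr10:42276646-42276945, minus strand): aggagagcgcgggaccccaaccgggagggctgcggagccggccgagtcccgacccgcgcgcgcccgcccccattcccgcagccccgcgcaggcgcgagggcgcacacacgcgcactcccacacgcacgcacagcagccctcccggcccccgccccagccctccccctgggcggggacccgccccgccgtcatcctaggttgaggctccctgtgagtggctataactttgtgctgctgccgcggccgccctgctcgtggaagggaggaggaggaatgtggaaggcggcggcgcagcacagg
Bnip3 (chr7:138909457-138909756, minus strand): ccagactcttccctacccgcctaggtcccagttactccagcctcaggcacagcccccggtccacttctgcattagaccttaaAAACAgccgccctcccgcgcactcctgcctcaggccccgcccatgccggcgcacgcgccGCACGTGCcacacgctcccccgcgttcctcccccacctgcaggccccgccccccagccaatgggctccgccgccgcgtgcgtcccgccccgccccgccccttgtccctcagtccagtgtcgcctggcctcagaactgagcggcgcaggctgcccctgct
Ctsl (chr13:64370471-64370770, minus strand): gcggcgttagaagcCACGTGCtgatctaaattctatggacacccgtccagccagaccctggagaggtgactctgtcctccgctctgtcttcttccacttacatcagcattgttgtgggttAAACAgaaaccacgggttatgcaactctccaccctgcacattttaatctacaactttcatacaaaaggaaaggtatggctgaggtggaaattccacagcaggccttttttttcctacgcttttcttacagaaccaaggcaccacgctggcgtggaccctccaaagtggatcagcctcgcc

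A window was found in the RefSeq table for 8 of the 10 genes, all but Foxo4 and Map1lc3a. The forkhead core was present in the windows of Foxo1, Ulk1, Gabarapl1, Bnip3, Sqstm1 and Ctsl and not in those of Foxo3 and Map1lc3b. The same 5 letters were present in 50.5% of all 32851 windows in the table. The longer forkhead sequence GTAAACA, present in 3.65% of all windows, was in none of the 8. The E-box was in the windows of Bnip3 and Ctsl, 108 and 236 bases before the start site, against 7.15% of all windows. ACGTGC was in the same 2 windows, where it overlapped the E-box, against 5.91% of all windows. The TFEB sequence TCACGTGA, in 0.974% of all windows, was in none of the 8. These matches describe the letters of the windows only, and no binding was measured.

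The libraries held 23026627 to 36880413 counts. All 24 matched the sex in their labels. The 6 skeletal muscle markers (Acta1, Ckm, Des, Mb, Ttn and Myh4) summed to 138934 CPM (counts scaled to library size) or more in every library. Male sham library 4 and female sham library 7 stood apart from their groups. Their summed CPM over 10 slow fibre genes was 86.4 and 72.9, while the other sham libraries lay between 1136 and 2338 in males and between 1300 and 3123 in females. None of the 10 slow fibre genes was at 0 in any library. The median of this sum was 1578 CPM in male sham and 2212 CPM in male SMC, and 2112 and 3036 CPM in females, with overlapping ranges. Averaged over the sexes, the median log2 fold change of the slow fibre genes with SMC was 0.57, and 0.33 without male sham 4 and female sham 7. None of them was called. In male sham 4 and female sham 7 the summed levels of the fibroblast markers (607 and 444 CPM) and of the endothelial markers (309 and 221 CPM) were also the lowest of their group. No other marker sum was the lowest or the highest of its group in both. Macrophage markers were below the group median in both, at 81.9 CPM in male sham 4 (median 110) and 53.7 CPM in female sham 7 (median 108). They were the lowest of the group in male sham 4 only. Skeletal muscle markers were above the group median in both, at 276597 CPM in male sham 4 (median 218101) and 369499 CPM in female sham 7 (median 249502). Adipocyte markers were highest of the group in male sham 4 (209 CPM, 94.1 to 172 in the others), and skeletal muscle markers in female sham 7 (369499 CPM, 139077 to 297047 in the others). In male sham library 4 the CPM of all 10 FoxO and autophagy genes exceeded that of the other 5 male sham libraries, and for 8 of the 10 it was the highest of all 24. In female sham library 7, 6 of the 10 lay above the other 5 female sham libraries and 2, Gabarapl1 and Ctsl, lay below them. Fits that carried the slow fibre score as a covariate are given below for some genes. What the slow fibre difference contributes to the levels of the 10 genes was not tested. Values without male sham 4 and female sham 7 stand beside the results that they moved most. In bulk muscle, fewer cells of a type and less RNA per cell cannot be told apart.

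**Figure D1:**
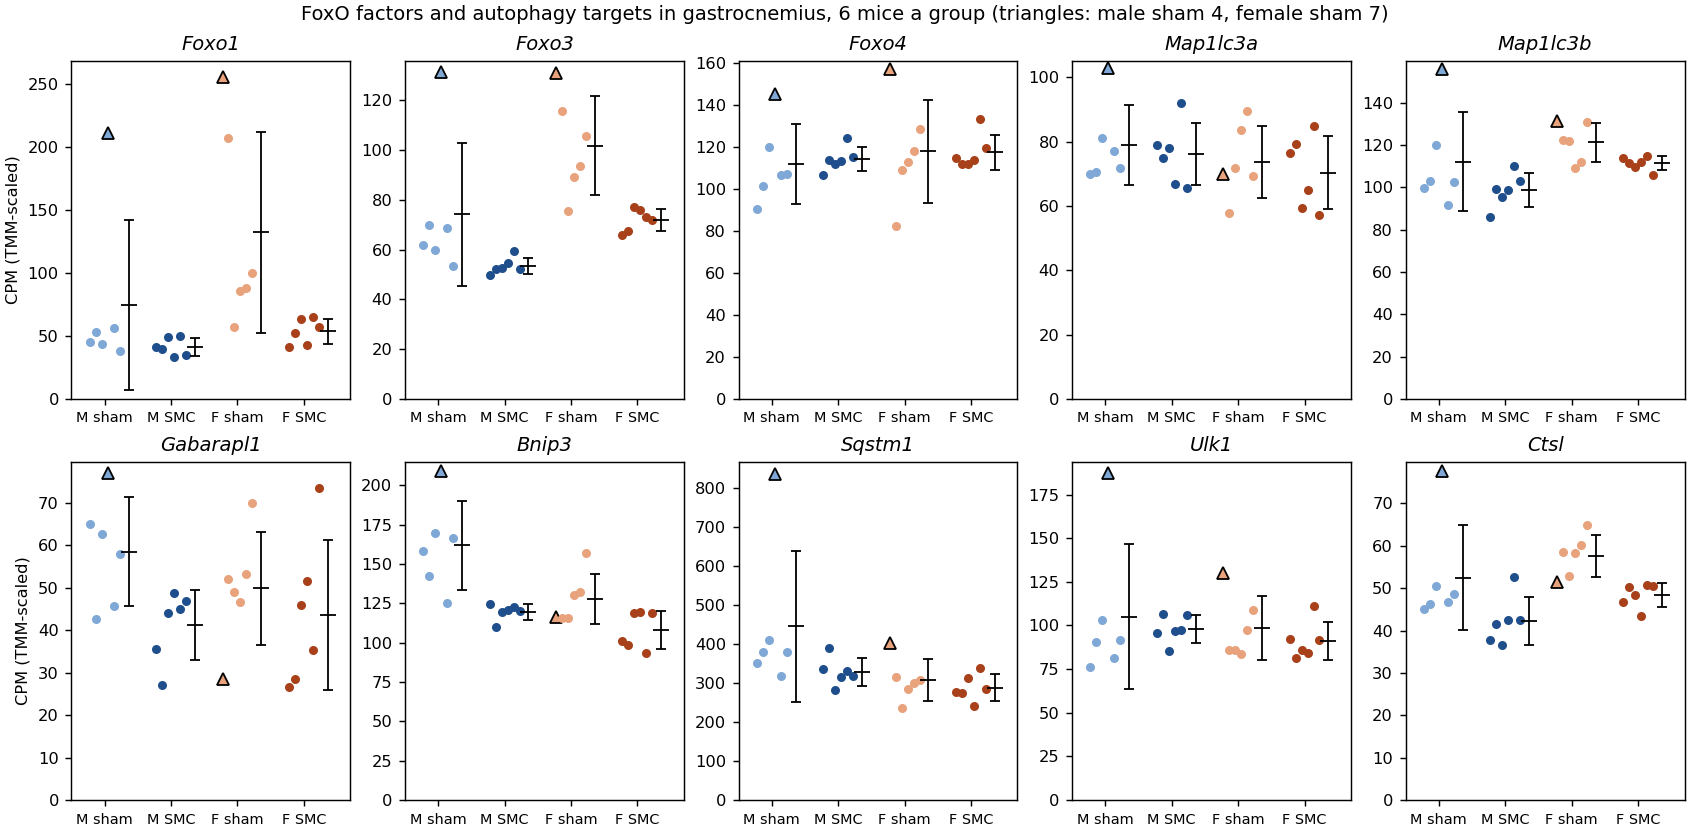
CPM (scaled by the trimmed mean of M values, TMM) of each of the 10 genes in each of the 24 libraries, by group (M, male; F, female), with the mean ± SD of 6 mice beside the points. Triangles mark male sham 4 and female sham 7, and the male triangle is the highest male sham point in every panel, with Foxo1 at 211 CPM against 38.4 to 56.3 CPM in the other 5.

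Per kilobase of exon, the targets spanned the largest range. Sqstm1, which encodes the cargo receptor p62, was the most abundant at 102 ± 34.3 CPM per kb (SD, n = 24 libraries over the 4 groups). Map1lc3a and Bnip3 followed at 63.3 ± 9.27 and 57.1 ± 11.6 CPM per kb, and these neighbours did not differ beyond their spread. Foxo4 was the most abundant of the factors at 33.1 ± 4.43 CPM per kb, above Foxo3 at 9.95 ± 3.19 and Foxo1 at 8.69 ± 6.98 CPM per kb, which overlapped each other. Gabarapl1 lay between at 23.996 ± 7.09 CPM per kb. Ulk1 (15.1 ± 3.47) and Map1lc3b (14.7 ± 1.98 CPM per kb) overlapped, and Ctsl was the least abundant at 7.74 ± 1.39 CPM per kb. Lengths were the union of the exons of all transcripts, so genes with long, rarely used exons read low on this scale.

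The main question was whether the SMC changed expression of these genes. Averaged over the sexes, 3 of the 10 genes fell with SMC, namely Foxo1, Foxo3 and Bnip3, and none rose. Foxo1 fell by 1.08 on the log2 scale, to 0.473-fold of sham, Foxo3 fell by 0.49 to 0.714-fold, and Bnip3 fell by 0.34 to 0.791-fold. Foxo4 and Map1lc3a stayed within 0.06 log2 units of 0. In this contrast 2.36% of all tested genes were called (edgeR quasi-likelihood test, false discovery rate, FDR, under 0.05), and 1.33% of all tested genes were called lower with SMC. DESeq2 called 4 of the 10, with Ctsl as the fourth, against 4.85% of all genes it tested. At an unadjusted p under 0.05, 7 of the 10 were lower and none was higher, against 9.65% of all genes lower. The 10 genes were chosen with earlier results of these data known, so these shares are no independent test. The median log2 fold change was -0.28 over the 10 genes and -0.0089 over all genes tested, and over the 10 genes it was -0.17 without male sham 4.

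Foxo1, which in muscle raises the ubiquitin ligases and represses glucose oxidation, varied most. In males its level ranged from 38.4 to 211 CPM in sham (median 49.1) and from 33.5 to 49.5 CPM in SMC (median 40.1). In females it ranged from 56.7 to 256 CPM in sham (median 94.0) and from 41.4 to 64.6 CPM in SMC (median 54.6). Sham and SMC mice overlapped in both sexes, and the upper end of sham came from 3 libraries, male sham 4 (211 CPM), female sham 7 (256 CPM) and female sham 8 (207 CPM). Of all 24 libraries, female sham 8 had the highest TMM factor (1.32) and female sham 7 the lowest (0.854). The spread within sham was 90.1% of the mean in males and 60.3% in females, against 16.7% and 18.5% in SMC. Without male sham 4 it was 15.5% in male sham, which is no wider than in male SMC, and without female sham 7 it was 53.8% in female sham. The averaged log2 fold change was -1.08 ± 0.26 (SE, FDR 0.0283). It was -0.75 (FDR 0.0349) without male sham 4 and -0.60 (FDR 0.0369) without both male sham 4 and female sham 7. The call was lost without female sham 8 (-0.99, FDR 0.0536), without male SMC 18 (-1.06, FDR 0.0517), without female SMC 19 (-1.05, FDR 0.0505), and with limma's sample weights (-0.60, FDR 0.0525). When the fit carried a slow fibre covariate, the value was -0.55 (FDR 0.0496).

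Foxo3, the factor best known for driving autophagy genes in muscle, had a narrower spread. Male sham libraries held 53.2 to 131 CPM (median 65.4) and male SMC libraries 49.97 to 59.6 CPM (median 52.3). Female sham libraries held 75.5 to 131 CPM (median 99.6) and female SMC libraries 65.9 to 77.3 CPM (median 72.4). The overlap between sham and SMC was 1 library in each sham group, male sham 6 and female sham 9, each the lowest of its group. The averaged log2 fold change of -0.49 ± 0.11 (SE, FDR 0.0225) passed the threshold in all 24 fits that left out 1 library, between -0.53 and -0.37. It was -0.33 (FDR 0.0109) when male sham 4 and female sham 7 were left out, and with the slow fibre covariate it was -0.32 (FDR 0.0277).

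Foxo4, the third factor expressed in muscle, showed no called difference. The median level was 107 CPM in sham males and 115 CPM in sham females, and 114 CPM in SMC mice of either sex. All 4 groups overlapped, between 82.1 and 157 CPM. The averaged log2 fold change was 0.01 ± 0.08 (SE, FDR 0.962), and the fits that left out 1 library gave -0.03 to 0.06.

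**Figure D2:**
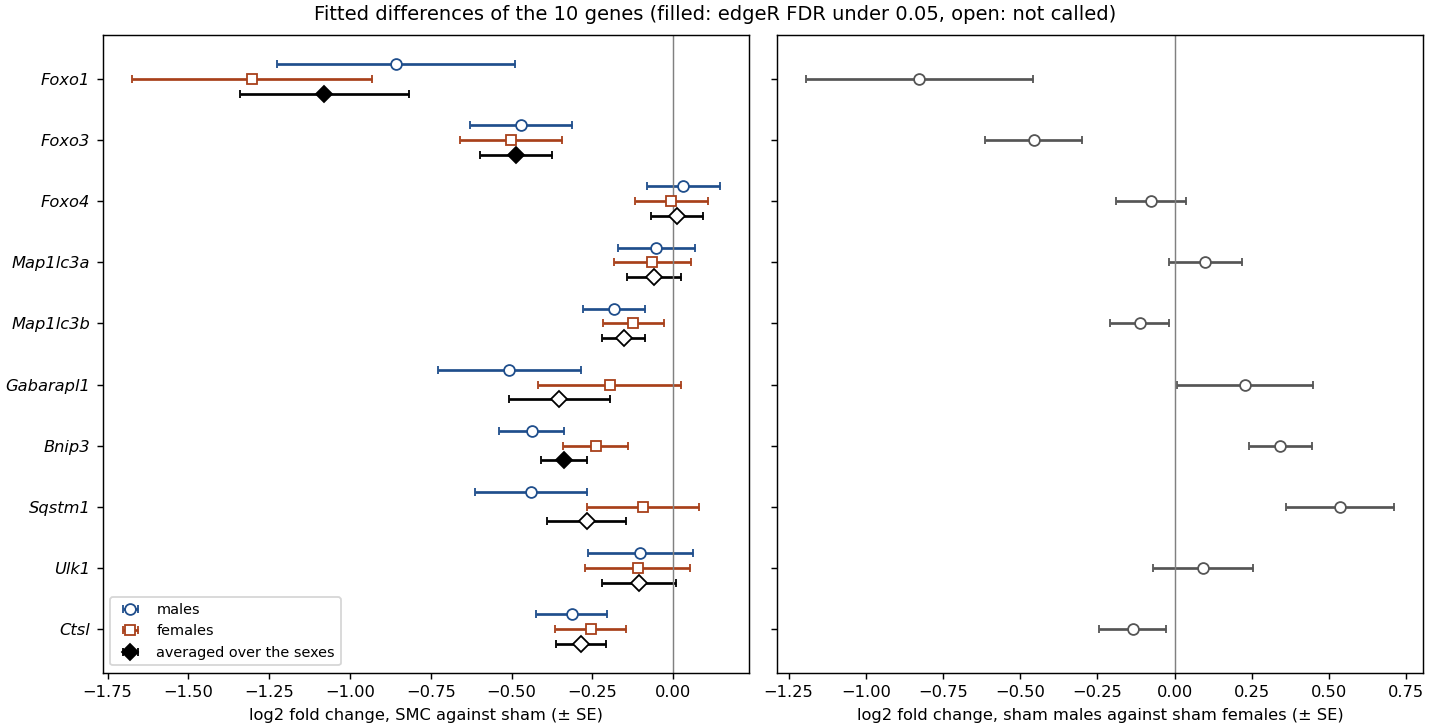
Log2 fold changes (± SE, edgeR) of the 10 genes, for SMC against sham in males, in females and averaged over the sexes (left, n = 6 a group), and for sham males against sham females (right). Filled symbols passed FDR 0.05, which only the averaged values of Foxo1, Foxo3 and Bnip3 did.

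Among the targets, Bnip3, a mitochondrial outer membrane receptor for mitophagy that FoxO3 and hypoxia both induce, was the one that passed the test. Male sham libraries held 125 to 209 CPM (median 162) and male SMC libraries 110 to 124 CPM (median 120). Female sham libraries held 115 to 157 CPM (median 123) and female SMC libraries 93.1 to 119 CPM (median 110). In males every SMC library lay below every sham library, male sham 5 (125 CPM) and male SMC 13 (124 CPM) being the nearest pair. Bnip3 was the one gene of the 10 with such a separation in males, which 0.311% of all genes had. In females the groups overlapped, with 3 SMC libraries at 119 CPM above the lowest sham libraries. SMC against sham averaged over the sexes gave -0.34 ± 0.07 (SE, FDR 0.0138). It passed the threshold in all 24 fits that left out 1 library, between -0.37 and -0.30, and was -0.31 (FDR 0.0142) without male sham 4 and female sham 7.

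Ctsl encodes cathepsin L, a lysosomal protease that rises in many forms of muscle wasting. Male sham libraries held 45.1 to 77.7 CPM (median 47.7) and male SMC libraries 36.6 to 52.7 CPM (median 41.9). Female sham libraries held 51.4 to 64.9 CPM (median 58.4) and female SMC libraries 43.5 to 50.7 CPM (median 49.3). In females every SMC library lay below every sham library, a separation that 0.634% of all genes had and that no other gene of the 10 showed. In males the libraries overlapped through male SMC 17 (52.7 CPM), while the other 5 SMC libraries lay below all sham libraries. The averaged log2 fold change of -0.28 ± 0.08 (SE) had an edgeR FDR of 0.0506 and a DESeq2 adjusted p of 0.0210. It passed the threshold in 6 of the 24 fits that left out 1 library, among them those without male sham 4 (-0.21, FDR 0.0440) and without female sham 7 (-0.30, FDR 0.0391).

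The proteins that coat the autophagosome membrane came next. For Gabarapl1 the male medians were 60.3 CPM in sham (42.8 to 77.0) and 44.5 CPM in SMC (27.004 to 48.8), and the female medians were 50.6 CPM in sham (28.6 to 70.0) and 40.6 CPM in SMC (26.6 to 73.6). The groups overlapped in both sexes, and the female SMC range was the widest of the 4. Averaged over the sexes, its log2 fold change was -0.35 ± 0.16 (SE, FDR 0.233).

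Map1lc3b, one of the LC3 genes, had medians of 103 CPM in male sham (91.6 to 156), 99.0 CPM in male SMC (86.0 to 110), 122 CPM in female sham (109 to 131) and 112 CPM in female SMC (106 to 115). The sham and SMC ranges overlapped in both sexes. Averaged over the sexes, it differed by -0.15 ± 0.07 (SE, FDR 0.227). For Map1lc3a, the other LC3 gene, the medians were 74.5 and 76.5 CPM in male sham and SMC and 70.8 CPM in both female groups, with all groups between 57.2 and 103 CPM. Its averaged log2 fold change was -0.06 ± 0.08 (SE, FDR 0.773). How reads that fit more than 1 place were counted is not given in the sources used here, so levels of genes with near-identical copies are uncertain.

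Sqstm1 links ubiquitinated cargo to LC3. Male sham libraries held 317 to 836 CPM (median 379) and male SMC libraries 282 to 389 CPM (median 324). Female sham libraries held 236 to 401 CPM (median 304) and female SMC libraries 240 to 339 CPM (median 281). The groups overlapped, and the highest values of both sham groups were those of male sham 4 and female sham 7. Its averaged log2 fold change of -0.27 ± 0.12 (SE, FDR 0.256) came to -0.09 (FDR 0.499) without these 2 libraries.

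Ulk1, the kinase that starts autophagosome formation, had medians of 91.3 CPM in male sham (76.0 to 187), 96.9 CPM in male SMC (85.3 to 106), 91.5 CPM in female sham (83.4 to 130) and 88.9 CPM in female SMC (81.5 to 111). All groups overlapped. Over both sexes the log2 fold change was -0.11 ± 0.11 (SE, FDR 0.683), and without male sham 4 it was 0.01.

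**Figure D3:**
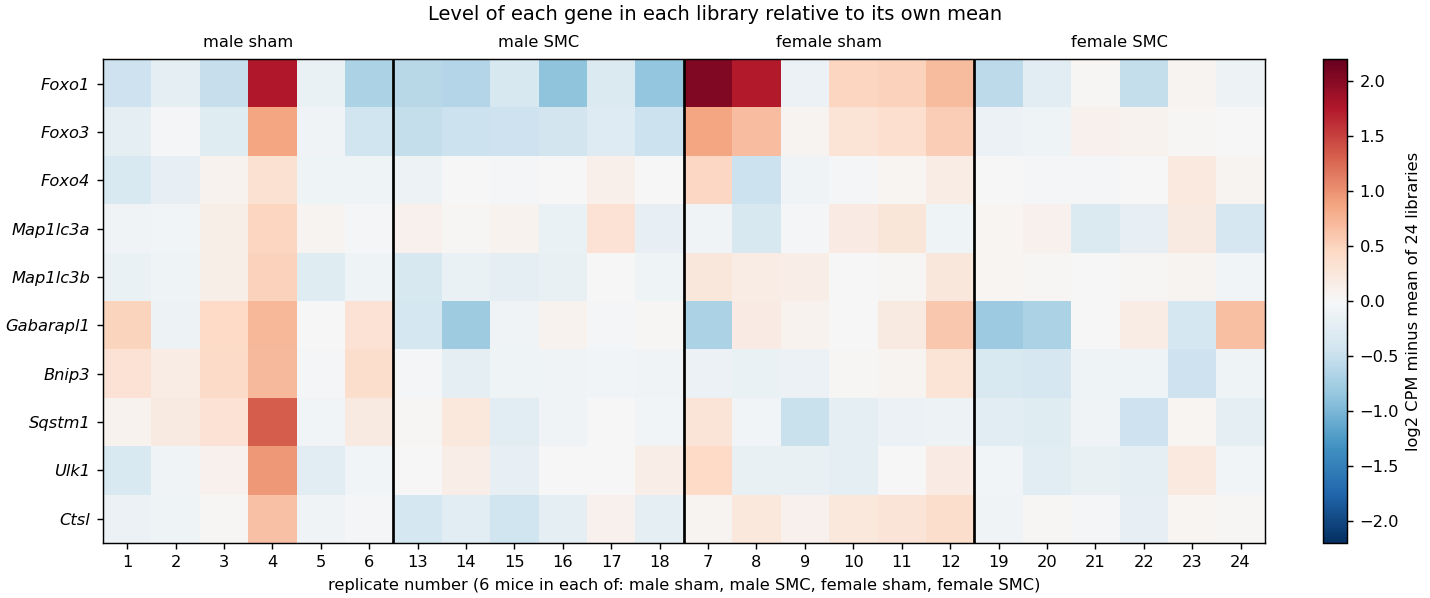
Log2 CPM of each gene in each library minus the mean of that gene over the 24 libraries, with libraries numbered as in their titles and grouped by sex and treatment. Male sham 4 is above the mean for all 10 genes, and female sham 7 and 8 stand out for Foxo1 and Foxo3. Most SMC libraries are at or below the mean for Foxo1, but so are female sham 9 and all male sham libraries other than male sham 4.

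Within males alone, none of the 10 genes passed the edgeR threshold, and neither did any of the 16408 genes (0%). At an unadjusted p under 0.05, 6 of the 10 were lower with SMC (Foxo1, Foxo3, Gabarapl1, Bnip3, Sqstm1 and Ctsl), against 5.59% of all genes. DESeq2 called Bnip3 (log2 fold change -0.44, adjusted p 0.00998) and 1.01% of all genes it tested, while its edgeR FDR was 0.0929. The male log2 fold change of Bnip3 was -0.44 ± 0.10 (SE) with edgeR. The male values of Foxo1 (-0.86 ± 0.37, FDR 0.381), Foxo3 (-0.47 ± 0.16, FDR 0.267) and Sqstm1 (-0.44 ± 0.17, FDR 0.337) leaned on 1 library. They were -0.21, -0.24 and -0.17 without male sham 4, and that of Ulk1 turned from -0.10 to 0.13. Bnip3 was -0.36 (FDR 0.191) without male sham 4. Without male sham 5 Bnip3 was -0.51 (FDR 0.0305), past the threshold, and 78 of all genes passed in that fit. The median log2 fold change in males was -0.38 over the 10 genes and -0.0044 over all genes, and without male sham 4 these were -0.18 and -0.0077.

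Within females alone, none of the 10 passed the edgeR threshold, against 0.341% of all genes, and DESeq2 also called none of them, against 1.64%. At an unadjusted p under 0.05, 4 of the 10 were lower (Foxo1, Foxo3, Bnip3 and Ctsl), against 7.47% of all genes. The largest female differences were those of Foxo1 (-1.30 ± 0.37, FDR 0.112) and Foxo3 (-0.50 ± 0.16, FDR 0.147). Without male sham 4, which is no female library but shares the estimate of the spread, the same values were -1.30 and -0.50 and both genes were called (FDR 0.0176 each). With female sham 7 left out as well they were -0.998 (FDR 0.0294) and -0.41 (FDR 0.0276). Calls over all genes also rose, from 36 lower and 20 higher with all 24 libraries to 92 and 42 without male sham 4. Without both libraries they were 93 and 62, and without female sham 7 alone none of the 10 was called. The female values of Bnip3 and Ctsl were -0.24 ± 0.10 (FDR 0.307) and -0.25 ± 0.11 (FDR 0.326). The median was -0.16 over the 10 genes and -0.011 over all genes.

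The male and female responses were compared directly by the interaction term. None of the 10 genes and none of all genes (0%) passed FDR 0.05, and at an unadjusted p under 0.05 none of the 10 did, against 5.13% of all genes. The DESeq2 interaction also called none of the 10, against 0.00611% of all genes. The difference of the male minus the female response was 0.44 ± 0.52 log2 units (SE) for Foxo1, -0.35 ± 0.25 for Sqstm1, -0.31 ± 0.31 for Gabarapl1 and -0.20 ± 0.14 for Bnip3. These errors leave differences of either sign for each of these genes. Without male sham 4 the Foxo1 value was 1.08 (FDR 0.641), that of Sqstm1 -0.084, that of Gabarapl1 -0.23 and that of Bnip3 -0.13, and none was called.

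**Figure D4:**
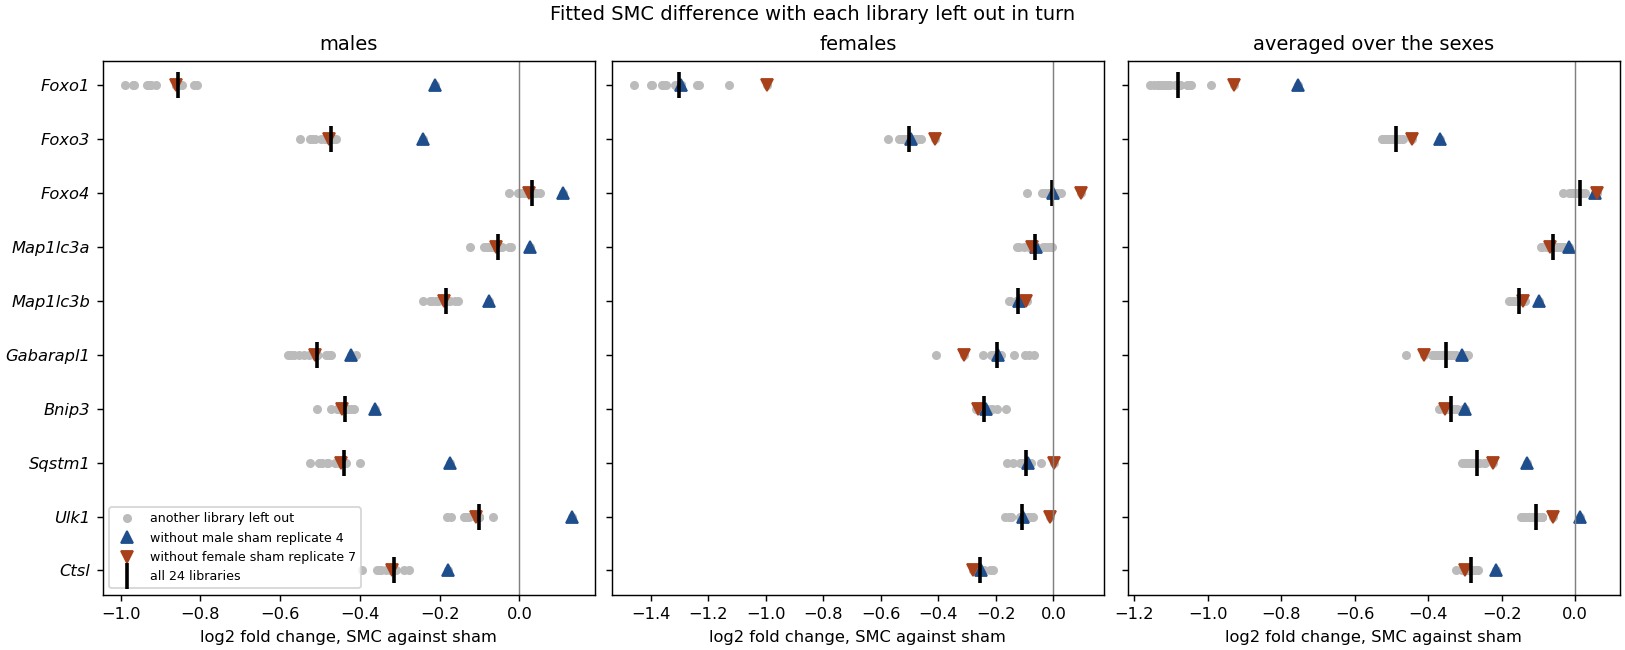
Log2 fold change of SMC against sham (edgeR) for each gene in males, females and averaged over the sexes. The black bar is the fit of all 24 libraries, each point a fit with 1 library left out, and triangles are the fits without male sham 4 or female sham 7, which moved the male value of Foxo1 from -0.86 to -0.21 and the female value from -1.30 to -0.998.

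Sham males and sham females were then compared, a contrast that shares its sham libraries with the SMC comparisons. None of the 10 genes passed the edgeR threshold, against 1.97% of all genes, and DESeq2 called Bnip3, against 3.51% of all genes. At an unadjusted p under 0.05, 4 of the 10 differed (Foxo1, Foxo3, Bnip3 and Sqstm1), against 15.5% of all genes. Foxo1 was -0.83 ± 0.37 (FDR 0.273) and Foxo3 -0.46 ± 0.16 (FDR 0.138) in males relative to females, while Bnip3 was 0.34 ± 0.10 (FDR 0.0765, DESeq2 adjusted p 0.0358) and Sqstm1 0.53 ± 0.17 (FDR 0.112).

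The sex difference of the factors depended on male sham 4. Without it the log2 fold change of sham males against sham females was -1.47 (FDR 0.00435) for Foxo1 and -0.69 (FDR 5.26e-04) for Foxo3, and both were called, while Sqstm1 was 0.27 (FDR 0.184). Leaving out female sham 7 as well, these values were -1.17 (FDR 0.00765) and -0.60 (FDR 8.48e-04), and Sqstm1 (0.36, FDR 0.0487) and Ctsl (-0.30, FDR 0.0429) were called too. With the slow fibre covariate Foxo1 (-1.09, FDR 0.00530), Foxo3 (-0.54, FDR 0.00567) and Sqstm1 (0.41, FDR 0.0158) were called. Calls over all genes rose in these fits too. They were 324 with all 24 libraries, 487 without male sham 4, 511 without both libraries and 745 with the covariate. Without female sham 7 alone none of the 10 was called. Bnip3 was called without male sham 5 or without female sham 12, and its FDR over the 24 fits lay between 0.0227 and 0.144. The order of the Foxo1 means was female sham (132 ± 79.6 CPM), male sham (74.6 ± 67.2), female SMC (53.5 ± 9.91) and male SMC (41.1 ± 6.86, SD, n = 6 each), and each neighbouring pair overlapped. For Foxo3 the order was female sham (102 ± 19.9 CPM), male sham (74.2 ± 28.7), female SMC (71.9 ± 4.57) and male SMC (53.5 ± 3.34), where male sham and female SMC did not differ beyond their spread.

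Targets were next related to factors across mice, after the mean of each group was subtracted from log2 CPM. Differences between group means therefore do not enter, but differences in spread between groups do. For Foxo1 the SD of log2 CPM was 0.91 in male and 0.83 in female sham, against 0.24 and 0.27 in SMC, so sham mice weigh most. All values of a mouse share its library and scaling factor. Of 21 relations, 5 passed a permutation test (mice shuffled within groups, 100000 resamples, two-sided, adjusted over the 21). Foxo4 and Ulk1 had the one relation that also passed without male sham 4, with Pearson's r of 0.799 (permutation p 1e-05, the smallest these resamples can give, adjusted 2.1e-04) and Spearman's rho of 0.817 (permutation p 9e-05, adjusted 0.00189) over 24 mice. It was 0.894 without female sham 7 and 8, the 2 mice farthest from the median of Foxo4, 0.779 without male sham 4, 0.883 in males and 0.825 in females.

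Foxo1 and Sqstm1 had an r of 0.816 (permutation p 0.0012, adjusted 0.0126) and a rho of 0.670 (permutation p 0.0014, adjusted 0.0147). This relation rested on the 2 farthest mice, male sham 4 and female sham 7, without which r was 0.412 (permutation, adjusted p 0.308). It was 0.830 in males (permutation, adjusted p 0.193) and 0.851 in females (permutation, adjusted p 0.00714). Foxo3 and Sqstm1 had an r of 0.811 (permutation p 0.0059, adjusted 0.0378) that was 0.261 without the same 2 mice, and a rho of 0.586 (permutation p 0.0096, adjusted 0.0505). Foxo4 was also related to Map1lc3b, with an r of 0.602 (permutation p 0.0072, adjusted 0.0378) and a rho of 0.641 (permutation p 0.0030, adjusted 0.0213). Foxo4 and Sqstm1 had an r of 0.613 (permutation p 0.0108, adjusted 0.0454) and a rho of 0.537 (permutation p 0.0136, adjusted 0.0570). Without female sham 7 and 8 the r of Foxo4 was 0.808 to Map1lc3b and 0.778 to Sqstm1. The values were 0.421 and 0.441 and no longer passed without male sham 4, and of all 21 relations only that of Foxo4 and Ulk1 then did. In males alone 5 relations passed (12 mice, permutation, adjusted over the 21), those of Foxo4 to Map1lc3a (r 0.766), Map1lc3b (0.888), Ulk1 (0.883) and Ctsl (0.882) and of Foxo1 to Map1lc3a (0.813). When male sham 4 was left out of the males, a comparison chosen after seeing the data, the one of Foxo4 and Ctsl passed (r 0.663, permutation, adjusted p 0.00966) and the other 4 did not, Foxo4 and Ulk1 among them (r 0.654, permutation, adjusted p 0.260). Over all 24 mice no relation of Bnip3 to a factor passed, with r of 0.200 to Foxo1, 0.365 to Foxo3 and 0.326 to Foxo4.

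**Figure D5:**
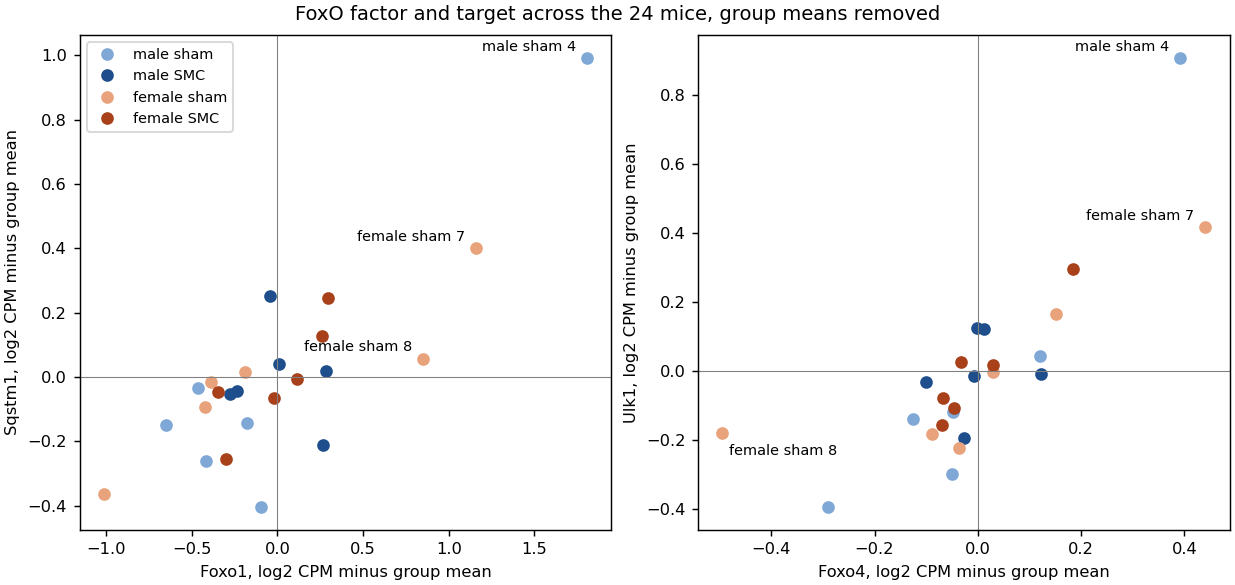
Log2 CPM minus the group mean in each of the 24 mice, for Sqstm1 against Foxo1 (left) and for Ulk1 against Foxo4 (right), colored by group. The Foxo1 relation (r = 0.816) is drawn out by male sham 4 and female sham 7, while that of Foxo4 and Ulk1 (r = 0.799) runs through the other mice too.

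The genes whose level followed each factor most closely across the 24 mice, group means removed, were taken from all 16408 tested genes. For Foxo1 they were Wbp1l (r = 0.941), Anapc16 (0.922) and Sorbs3 (0.920), and for Foxo3 they included Tacc2 (0.925) and Lztr1 (0.903). For Foxo4 they were Eif4g1 (0.975), Kif1c (0.952) and Pcyt1a (0.941). Without male sham 4 these 8 values lay between 0.803 for Lztr1 and 0.968 for Eif4g1.

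The neighbouring genes of the pathway were counted in lists of known members. Of 27 genes of the core autophagy machinery (initiation, nucleation and conjugation) 1 fell, averaged over the sexes, and none rose, against 1.33% of all genes lower, with a median log2 fold change of -0.03. The gene was Rb1cc1, which encodes FIP200, the scaffold of the Ulk1 complex, at -0.22 ± 0.06 (SE, FDR 0.0438). It was -0.21 (FDR 0.0596) and not called without male sham 4. Its medians were 138 and 113 CPM in male sham and SMC and 124 and 111 CPM in female sham and SMC. Gabarap, another autophagosome coat protein, had the smallest p of this list in females at 0.26 ± 0.06 (FDR 0.0651), while in males Rb1cc1 did (-0.30 ± 0.08, FDR 0.161). In females every SMC library held more Gabarap (70.1 to 83.0 CPM) than every sham library (62.2 to 65.9 CPM). In males the ranges overlapped, at 61.7 to 71.6 CPM in sham and 55.9 to 71.6 CPM in SMC. The share of all genes with such an upward separation was not counted.

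Of 18 genes of selective autophagy and mitophagy 1 fell and none rose (median -0.05), against the same 1.33% of all genes lower. This was Retreg1, a receptor for autophagy of the endoplasmic reticulum, at -0.69 ± 0.17 (SE, FDR 0.0283), which was also the first of the list in females (-0.61 ± 0.24, FDR 0.253) and came to -0.54 (FDR 0.0365) averaged without male sham 4. In males the first was Tex264, another such receptor, at -0.29 ± 0.08 (FDR 0.179). Bnip3l, the closest relative of Bnip3, was not called. Stbd1, a receptor for glycogen, was lower in sham males than in sham females, at -0.62 ± 0.13 (SE, FDR 0.0124).

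Of 27 genes of the lysosome and its regulator TFEB 1 fell and none rose, against 1.33% of all genes lower. The median was -0.019, and 0.0028 without male sham 4. Atp6v1h, a subunit of the proton pump that acidifies the lysosome, fell by 0.52 on the log2 scale (SE 0.09, FDR 0.00531), at -0.57 ± 0.13 in males (FDR 0.0929) and -0.47 ± 0.13 in females (FDR 0.101). Male sham libraries held 16.01 to 33.6 CPM of it and male SMC libraries 12.2 to 15.9 CPM, so the groups did not overlap. Female sham libraries held 17.3 to 19.3 CPM and female SMC libraries 11.3 to 14.95 CPM, again without overlap. Of all genes, 0.311% had such a separation in males and 0.634% in females. Atp6v1h was named for having the smallest p of its list, so its separation is no independent result. Leaving out male sham 4 and female sham 7 gave an averaged value of -0.43 (FDR 0.00189).

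The list of 21 other FoxO targets outside autophagy was also chosen with earlier results known. Of these 21, 5 fell and none rose, against 1.33% of all genes lower. The median was -0.11, and -0.052 without male sham 4. They were Ddit4 (-2.39 ± 0.55, FDR 0.0217), an inhibitor of mTORC1, Trim63 (-1.49 ± 0.34, FDR 0.0215), which encodes the ubiquitin ligase MuRF1, Sesn1 (-0.94 ± 0.21, FDR 0.0215), a leucine-sensing inhibitor of mTORC1, Pdk4 (-0.82 ± 0.18, FDR 0.0166), which inhibits pyruvate dehydrogenase, and Klf15 (-0.57 ± 0.15, FDR 0.0480), a transcription factor of amino acid use. Pdk4 also fell in females alone, by 1.12 on the log2 scale (FDR 0.0496), from a median of 1930 CPM in sham to 913 CPM in SMC, and without female sham 7 it was -1.07 (FDR 0.0657), not called. In males Sesn1 had the smallest p of the list (-1.04 ± 0.31, FDR 0.195), and without male sham 4 it was -0.42 (FDR 0.361). Trim63 reached 1901 CPM in the highest male sham library against a median of 249 CPM, and Ddit4 reached 360 CPM in the highest female sham library against a median of 74.0 CPM. Without male sham 4 alone 4 of the 5 kept their call, all but Klf15 (-0.43, FDR 0.0603), with Trim63 at -0.95 (FDR 0.0201), and without female sham 7 alone the same 4 did. Without both libraries 3 of the 5 kept it, namely Pdk4 (-0.74, FDR 0.0307), Trim63 (-0.83, FDR 0.0240) and Sesn1 (-0.60, FDR 0.00922), while Ddit4 (-1.40, FDR 0.0612) and Klf15 (-0.36, FDR 0.0659) did not. Fbxo21, an F-box ubiquitin ligase subunit of this list, was higher in sham males than in sham females at 0.48 ± 0.12 (SE, FDR 0.0368), and without male sham 4 it was 0.38 (FDR 0.0542), not called.

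Of 17 genes that control FoxO activity, such as Akt1, Akt2 and Prkaa2, none passed FDR 0.05 with SMC in edgeR, and at an unadjusted p under 0.05 1 was lower in the averaged contrast, a share below the 9.65% of all genes lower at that p. That gene was Sgk1, a kinase that phosphorylates FoxO proteins, at -0.42 ± 0.16 averaged (FDR 0.177) and -0.53 ± 0.23 in females (FDR 0.338). In males the smallest p was that of Pdpk1, the kinase upstream of Akt, at -0.10 ± 0.06 (FDR 0.529). The median over the list was 0.02. Protein and phosphorylation of the factors were not measured, so these values bear on transcript levels alone.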

How the data were processed

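The deposited values are raw counts per Ensembl gene, 1 column per mouse, with no normalization by the authors. Per the labels, RNA was prepared with a Direct-zol kit and a directional library kit with ribosomal RNA depletion. The submitters' processing notes name cutadapt 1.16, STAR 2.7.9a, featureCounts 1.6, DESeq2 1.34.0 and the GRCm39 (mm39) build. The annotation release, the strand setting and the treatment of reads with several matches are not given in the sources used here. No strand setting means that a gene and an antisense partner may share counts.

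Groups came from the sex and treatment in the labels. Total counts per library lay between 23026627 and 36880413, and each of the 10 genes had at least 586 counts in every library, so that the spread between mice, not counting error, sets the precision. The labels do not say whether mice came from separate cages or litters.

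Genes were filtered with filterByExpr, scaled by TMM and tested with edgeR 4.0.16 (R 4.3.3) quasi-likelihood tests, 1 mean per group over 24 libraries, two-sided, with Benjamini-Hochberg adjustment over 16408 genes and a threshold of 0.05. All FDR values in the text are from edgeR unless DESeq2 (1.42.0) or limma (3.58.1) is named. A prior count of 2 was added for log2 CPM. The SMC response averaged over the sexes is the mean of the male and female log2 fold changes. The alternatives were DESeq2, RLE scaling, other filters, limma voomWithQualityWeights, the slow fibre score as a covariate, 12 libraries of 1 comparison, and fits that left out 1 library or 2. Relations in males without male sham 4 were added after seeing the data. The pipeline was tested on simulated data.

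Gene names matched 52083 of 55416 identifiers. Exon lengths came from GENCODE mouse release M21 (GRCm38), another build than that of the counts, matched by identifier, and promoter windows from RefSeq (GRCm38.p6). The 10 genes and all lists were chosen with earlier results of these data known. Named genes of the other lists are those past the threshold and the gene of smallest p in each list and sex. For likeness, 3 genes of highest Pearson's r were taken for each factor, 1 of which is not reported here. Calculations and plots across mice used Python with numpy, pandas and matplotlib.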

Additional observations from a re-analysis of the deposited data

Results flagged for a closer look

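Of 40 groups of 6 libraries (10 genes in 4 groups), 6 had a library whose distance from the others exceeded Dixon's critical value of 0.625, where about 2 would by chance. In 5 of them it was male sham 4, the highest library of its group. Its log2 CPM was 7.72 for Foxo1 (5.26 to 5.82 in the other 5), 7.04 for Foxo3 (5.74 to 6.13), 9.71 for Sqstm1 (8.31 to 8.68), 7.55 for Ulk1 (6.25 to 6.69) and 6.28 for Ctsl (5.497 to 5.66). The same library held 86.4 CPM of summed slow fibre genes against 1136 to 2338 in the other male sham libraries, and the part of this difference in the 5 values was not tested. In the sixth group male SMC 14 was the lowest for Bnip3, at a log2 CPM of 6.78 (6.90 to 6.96 in the other 5).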

How the results depend on the processing

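No paired analysis was made because the labels name no pairs of mice. In some experiments the study kept sham and SMC mice in pairs, and whether it did so for these mice is not given. Of the 10 genes, the number called averaged over the sexes was 3, and 2 to 4 in fits without 1 library. In males it was 0 (0 to 1 without 1 library) and 1 with DESeq2 and with limma weights, each time Bnip3. In females it was 0 (0 to 2) and 2 without male sham 4 and female sham 7. The sex difference in the response gave 0 in all these fits. In sham males against sham females it was 0 (0 to 2), 1 with DESeq2 and with limma weights, 3 with the slow fibre covariate and 4 without both libraries. Of the 21 relations 5 passed, 5 in males alone, 2 in females alone, 1 without male sham 4 and 1 in males without it, the last chosen after seeing the data. Over all genes the number called in males was 0, but 133 with DESeq2, 93 with limma weights, 9 with the covariate and up to 78 without 1 library. In females it was 56, but 268 with DESeq2, 37 with RLE scaling, 16 with limma weights, 177 with the covariate, 155 without both libraries, 14 in the 12 female libraries and 0 to 147 without 1 library. Averaged it was 388, but 778 with DESeq2, 189 with no filter, 728 with the covariate and 236 to 501 without 1 library. Between sham sexes it was 324, but 575 with DESeq2, 745 with the covariate, 511 without both libraries, 58 in the 12 sham libraries and 187 to 487 without 1 library. The sex difference gave 0, 1 with DESeq2 and 0 to 1 without 1 library, the 1 without female SMC 20. The cause of these moves was not tested. With at least 586 counts of each of the 10 genes in every library, none of the 10 was near the limit of detection.

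No value that changed sign was called. With limma weights Ulk1 was 0.081 in males, 0.0093 averaged and -0.026 between sham sexes, Foxo4 0.015 in females, Map1lc3b 0.0065 and Ctsl 0.027 for the sex difference in the response, and Map1lc3a -0.018 between sham sexes. With the slow fibre covariate Ulk1 was 0.078 in males, 0.061 in females, 0.069 averaged and -0.0077 between sham sexes, Foxo4 0.096 and Sqstm1 0.10 in females. Without male sham 4 and female sham 7 Ulk1 was 0.13 in males, 0.061 averaged and -0.048 between sham sexes, Map1lc3a 0.027 in males, Foxo4 0.097 and Sqstm1 0.00069 in females, and Map1lc3b 0.020 and Ctsl 0.10 for the sex difference. With no filter Foxo4 was 0.0079 in females, and Map1lc3a -0.012 and Ulk1 -0.017 for the sex difference. Over the fits without 1 library Foxo4 ranged from -0.026 to 0.11 in males, -0.093 to 0.097 in females, -0.032 to 0.060 averaged, -0.073 to 0.12 for the sex difference and -0.16 to 0.028 between sham sexes. Ulk1 ranged from -0.18 to 0.13 in males, -0.15 to 0.014 averaged, -0.096 to 0.24 for the sex difference and -0.14 to 0.19 between sham sexes. Map1lc3a ranged from -0.12 to 0.027 in males and -0.063 to 0.087 for the sex difference, for which Foxo3 ranged from -0.066 to 0.25, Map1lc3b from -0.12 to 0.043 and Ctsl from -0.15 to 0.071. Sqstm1 in females ranged from -0.16 to 0.00071.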

Other observations

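More FoxO targets outside the autophagy set were called in females and between the sham sexes when male sham 4 was left out, while averaged over the sexes their number went from 5 to 4. With all 24 libraries 1 was called in females (Pdk4) and 1 between the sham sexes (Fbxo21), against 56 and 324 of all 16408 genes. Calls over all genes also rose in both comparisons without male sham 4. Without male sham 4, 5 of the 21 other targets (Pdk4, Ddit4, Trim63, Ccng2 and Sesn1) were lower with SMC in females and none was higher (edgeR, FDR under 0.05). Of 16568 genes tested, 92 were lower and 42 higher there. In sham males against sham females 5 of the 21 (Ddit4, Trim63, Klf15, Gadd45a and Sesn1) were lower and none higher, against 295 lower and 192 higher. These comparisons share the female sham libraries. With female sham 7 left out as well, 4 of the 21 were lower in each of them, Pdk4, Trim63, Ccng2 and Sesn1 with SMC in females and Trim63, Klf15, Gadd45a and Sesn1 in sham males. Of 16557 genes, 93 were then lower and 62 higher with SMC in females, and 298 lower and 213 higher in sham males. The list of 21 was chosen with earlier results of these data known. In males no gene of this list passed in either fit.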
